A study of Homo sapiens with 6 samples.

Results

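ANKRD1 and 9 further genes of the Hippo-YAP pathway were followed in PANC1 cells, a human pancreatic carcinoma line, with or without gemcitabine, a drug that stalls DNA replication as a false nucleoside. The 10 genes are ANKRD1, CCN1, CCN2, AMOTL1, AMOTL2, YAP1, WWTR1, LATS2, TEAD1 and TEAD4, out of 20461 in the deposited gene table, and each was found there by its Ensembl identifier. They were chosen with their measured RNA difference between the treatments in view. That difference is therefore given as a description, with no p-value for any of the 10. Cells had received vehicle (0.1% DMSO) or 50 nM gemcitabine for 48 h. RNA-seq gave 2 vehicle and 2 gemcitabine libraries, and DNaseI-seq, which maps open chromatin, gave 1 library of each treatment. All libraries come from 1 cell line, so nothing here bears on other pancreatic carcinoma cells. In bulk RNA, a smaller share of cells that make a transcript and less of it per cell cannot be told apart.

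The Hippo pathway is a kinase cascade that restrains growth in crowded or mechanically relaxed tissue. The kinases STK3 and STK4 with SAV1 activate LATS1 and LATS2, which phosphorylate the coactivators YAP1 and WWTR1 (also called TAZ) and keep them out of the nucleus. When the cascade is quiet, YAP1 and WWTR1 enter the nucleus and bind the TEAD factors, which bring them to genes such as CCN1, CCN2 and ANKRD1. Angiomotins and LATS2 restrain YAP1, and AMOTL2 and LATS2 are themselves induced by it, which closes a feedback loop. Much of this control acts on protein phosphorylation and location, which RNA-seq does not measure.

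The sequences in which TEAD factors could meet these genes are shown first. CCN2 and ANKRD1 hold the most TEAD matches among the promoters that could be read. Whether such matches have a part in the fold changes was not tested. The motif searched was GGAATG or its reverse complement CATTCC, in windows from 250 bases before to 50 after the start of a gene, as RefSeq gives them on GRCh38.p14. RefSeq windows were matched for 7 of the 10 members, with 9 windows in all. Those of CCN1, TEAD1 and TEAD4 were not matched. Below are the 250 bases upstream of the start, 5′ to 3′ on the strand of the gene, with TEAD matches and a match of the AP-1 motif TGANTCA in capitals. CCN2 lies at chr6:131951373-131951622 and ANKRD1 at chr10:90921088-90921337, both on the minus strand. AMOTL2 is shown at chr3:134374448-134374697 on the minus strand and YAP1 at chr11:102110197-102110446 on the plus strand.
CCN2: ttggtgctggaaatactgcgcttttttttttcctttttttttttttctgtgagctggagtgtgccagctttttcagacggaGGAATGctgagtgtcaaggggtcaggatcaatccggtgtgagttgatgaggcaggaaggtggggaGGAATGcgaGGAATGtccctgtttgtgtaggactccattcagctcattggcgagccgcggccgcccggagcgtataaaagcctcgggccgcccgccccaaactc
ANKRD1: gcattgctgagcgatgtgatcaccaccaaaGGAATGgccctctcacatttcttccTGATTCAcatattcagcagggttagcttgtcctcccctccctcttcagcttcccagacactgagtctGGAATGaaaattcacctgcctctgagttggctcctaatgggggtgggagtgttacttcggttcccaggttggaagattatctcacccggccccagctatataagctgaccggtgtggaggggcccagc
AMOTL2: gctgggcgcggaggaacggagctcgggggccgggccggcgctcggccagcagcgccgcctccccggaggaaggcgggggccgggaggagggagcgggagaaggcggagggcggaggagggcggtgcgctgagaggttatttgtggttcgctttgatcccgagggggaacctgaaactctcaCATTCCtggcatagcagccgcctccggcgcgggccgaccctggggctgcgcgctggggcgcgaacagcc
YAP1: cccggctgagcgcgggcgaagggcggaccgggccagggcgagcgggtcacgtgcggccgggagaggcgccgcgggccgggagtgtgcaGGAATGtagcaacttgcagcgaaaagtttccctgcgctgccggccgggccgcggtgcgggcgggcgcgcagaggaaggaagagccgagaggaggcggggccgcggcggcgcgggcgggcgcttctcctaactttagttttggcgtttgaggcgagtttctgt

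CCN2 holds 3 TEAD matches, which begin 169, 104 and 95 bases before its start. ANKRD1 holds 2, beginning 220 and 128 bases before the start, with the AP-1 match 195 bases before it. The AMOTL2 match, in the CATTCC orientation, begins 69 bases before the start, and the YAP1 match 162 bases before it. LATS2 has 1 match that begins at base 10 of the transcript, beyond the stretch printed for the other genes. AMOTL1, WWTR1 and the other AMOTL2 window hold none. Among all 35116 RefSeq promoter windows of this length, 14.0% hold at least 1 TEAD match and 1.37% hold at least 2, while 7.71% hold the AP-1 letters. No CArG box, the site of serum response factor, was found in these windows, and 1.29% of all windows hold one. A match describes the letters and says nothing about binding in these cells.

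The 4 RNA libraries hold between 13194535 and 15766232 fragments on protein-coding genes, so that 3 fragments correspond to 0.19 to 0.227 CPM, that is, fragments relative to all those of the library. A count of 0 allows up to 3 fragments, for counting error only. The libraries of each treatment differed by more than counting noise, their mean chi-square over genes being 2.17 (vehicle) and 5.16 (gemcitabine). Such an excess cannot tell biological from technical replicates. The study describes 2 biological replicates per condition, and the libraries count as separate samples. The labels give them as replicates of 1 line, so the spread between them may be in part technical. Of the epithelial markers KRT7, KRT8 and KRT18 were abundant, KRT18 with 5963 to 7000 fragments per library, as was the mesenchymal marker VIM with 9494 to 10896. Of the other mesenchymal markers, CDH2 had 2196 and 2215 fragments in vehicle and 1469 and 1636 in gemcitabine. ZEB1 had 626 and 800 against 544 and 564. KRT19 (45 and 45 fragments in vehicle, 94 and 88 in gemcitabine) and EPCAM (80 and 57 against 48 and 45) were scarce, and KRT19 passed the test as higher. The 5 acinar and endocrine markers together had at most 1 fragment in any library, and 3 of them (PRSS1, INS and GCG) had none. ANKRD1 is best known from heart muscle, where it is a stretch-induced nuclear and sarcomeric protein. The heart and striated muscle list summed to 610 to 621 fragments in vehicle and 573.7 to 650 in gemcitabine, of which ACTC1 had 554 to 619. NPPB was at 0, and MYH6, MYH7 and NPPA had at most 3 fragments in each library. TNNT2 alone of that list passed the test (4 and 3 fragments against 28 and 16.7), and its part in the ANKRD1 result was not tested. Markers of other cell types that were higher with gemcitabine included CD68 (133 and 154 against 238 and 269), LUM (67 and 71 against 116 and 102) and VWF (8 and 9 against 34 and 30). The leukocyte list summed to 138 to 156 fragments in vehicle and 247 to 275 in gemcitabine, with CD3E at 0 and PTPRC at 2 to 9. The endothelial list, without PECAM1, summed to 8 to 12 and 32 to 34, with CDH5 at 0 to 3. The fibroblast list summed to 63262 to 63888 and 58460 to 62710, nearly all of it COL1A1. Beside LUM in that list, ACTA2 had 1088 and 1120 against 1597 and 1347, and DCN 32 and 39 against 24 and 32. The part of these cell types in the results was not tested.

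ANKRD1 showed by far the largest difference of the 10 genes. The gene lies at chr10:92671853-92680844 of hg19 on the minus strand. Its vehicle libraries hold 10 and 4 fragments of it and its gemcitabine libraries 85 and 60. All 4 counts are small, but both gemcitabine counts lie far above both vehicle counts. After TMM scaling, which evens out the composition of the libraries, the level was 0.475 ± 0.301 CPM in vehicle (SD, n = 2) and 5.27 ± 1.22 CPM in gemcitabine (SD, n = 2). The fold change was 11.0, or 3.46 on the log2 scale with a standard error of 0.39. Its size rests on the few vehicle fragments, since it ran from 7.62-fold without vehicle replicate 2 to 19.5-fold without vehicle replicate 1. Ordered by fold change from the highest, it was number 30 of the 14854 genes that had 10 or more fragments in all. Even so, ANKRD1 stayed the least abundant of the 10 genes by FPKM (fragments per kilobase, scaled to depth), at 0.352 and 0.0974 in vehicle and 3.12 and 2.23 in gemcitabine.

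CCN2 (chr6:132269316-132272512, minus strand), a secreted matrix protein also known as connective tissue growth factor, was the member with the next highest fold change. It had 5147 and 5420 fragments in vehicle and 8203 and 9285 in gemcitabine. Every gemcitabine count is above every vehicle count, although the gemcitabine libraries are the smaller ones. Its level was 355 ± 1.2 CPM in vehicle and 636 ± 64.2 CPM in gemcitabine (SD, n = 2 each), a fold change of 1.79 (log2 0.84, standard error 0.075). Leaving out single libraries kept the log2 value between 0.74 and 0.94.

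CCN1 (chr1:86046444-86050272, plus strand), the closest relative of CCN2 and another secreted matrix protein, lay slightly below vehicle. It had 10033 and 10339 fragments in vehicle and 8723 and 8239 in gemcitabine. The level was 685 ± 8.16 CPM in vehicle and 617 ± 16.6 CPM in gemcitabine (SD, n = 2 each), which is -0.15 on the log2 scale (standard error 0.065). Its FPKM overlapped between treatments, at 323 and 317 against 328 and 294. So the 3 classic targets among the members ranged from an 11.0-fold higher level to one slightly below vehicle.

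**Figure D1:**
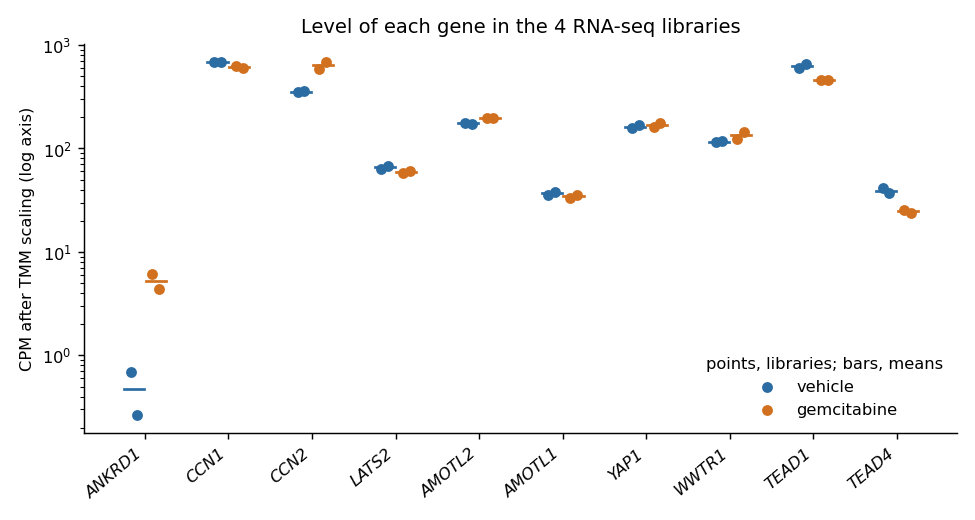
CPM after TMM scaling (log axis) of the 10 genes in each RNA-seq library, with vehicle in blue, gemcitabine in orange, points for libraries and bars for the mean of 2 libraries. ANKRD1 sits lowest and is widest apart, with 0.688 and 0.263 CPM against 6.12 and 4.41, while AMOTL1 and YAP1 overlap between treatments.

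YAP1 (chr11:101981178-102104155, plus strand) and WWTR1 (chr3:149235022-149454501, minus strand), the coactivators that the cascade restrains, had log2 fold changes near 0. YAP1 had 158 and 167 CPM in vehicle and 162 and 178 CPM in gemcitabine, and the treatments overlap. Its log2 fold change was 0.07 (standard error 0.07). WWTR1 had 115 and 117 CPM in vehicle and 123 and 145 CPM in gemcitabine. The WWTR1 values do not overlap, but the gemcitabine libraries lie far apart, and the log2 fold change of 0.21 (standard error 0.079) moved between 0.09 and 0.33 when 1 of them was left out. By FPKM, YAP1 made up 53.9% and 52.5% of the pair in vehicle and 48.5% and 52.2% in gemcitabine.

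The inhibitors of YAP1 among the members also differed little. LATS2 (chr13:21547175-21635725, minus strand), the kinase that phosphorylates YAP1 and WWTR1, had 63.6 and 67.9 CPM in vehicle and 57.8 and 61.1 CPM in gemcitabine. The log2 fold change of LATS2 was -0.15 (standard error 0.075), and the ratio of its mean FPKM had the other sign, at 0.08. AMOTL2 (chr3:134074189-134094321, minus strand), an angiomotin that holds YAP1 at junctions, had 177 and 172 CPM in vehicle and 196 and 197 CPM in gemcitabine, a log2 fold change of 0.17 (standard error 0.064). AMOTL2 was the main angiomotin, with 75.7% to 80.8% of the family's FPKM in the 4 libraries.

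AMOTL1 (chr11:94439597-94609913, plus strand), a further angiomotin, gave a different answer by unit. Its CPM overlapped, at 35.4 and 38.1 in vehicle and 33.4 and 35.4 in gemcitabine, a log2 difference of -0.10 (standard error 0.087). By FPKM it was higher with gemcitabine, at 5.07 and 5.94 against 6.46 and 7.78, a log2 ratio of 0.37. Cuffdiff divides by the length of the isoforms it assigns, and the transcript length implied by the counts and FPKM of AMOTL1 was 6.68 and 6.19 kb in vehicle and 5.43 and 4.67 kb in gemcitabine. Only 8.89% of genes had a larger drop in this implied length. No direction is given for AMOTL1 for that reason.

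TEAD1 (chr11:12695968-12966284) and TEAD4 (chr12:3068496-3149842), both on the plus strand and DNA-binding partners of YAP1, were the members below vehicle by the most. TEAD4 had 601 and 563 fragments in vehicle and 351 and 327 in gemcitabine, with no overlap. Its level was 39.2 ± 3.1 CPM in vehicle and 24.7 ± 0.904 CPM in gemcitabine (SD, n = 2 each), which is 1.59-fold lower (log2 -0.67, standard error 0.094). TEAD1 had 8731 and 9883 fragments in vehicle and 6410 and 6286 in gemcitabine. That is 625 ± 34 CPM against 462 ± 0.198 CPM (SD, n = 2 each), or 1.35-fold lower (log2 -0.44, standard error 0.067). The fold change of TEAD4 lies near the limit of 1.5-fold used for calls, and it fell short of it with library totals in place of TMM (-0.56), without vehicle replicate 1 (-0.58), and in limma on log2(FPKM + 1) (-0.50) and log2(FPKM + 0.1) (-0.52).

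**Figure D2:**
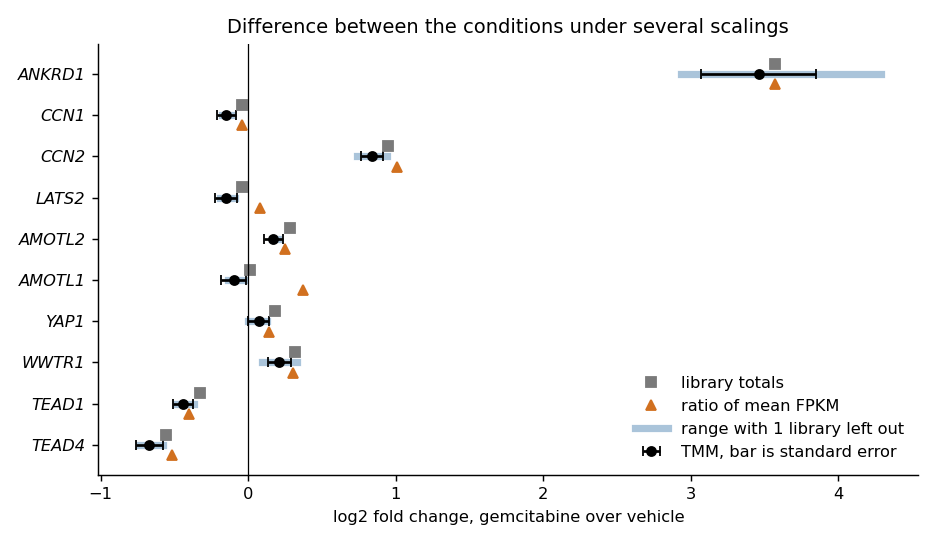
Log2 fold change of gemcitabine over vehicle for the 10 genes, with TMM scaling (black, bar is the standard error), library totals (grey squares), the ratio of mean FPKM (orange triangles) and the range with 1 library left out (blue band). ANKRD1 at 3.46 and CCN2 at 0.84 lie right of 0 and TEAD1 and TEAD4 left of it under each scaling, while LATS2 and AMOTL1 cross 0.

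Counted together, the members were split evenly, with 5 log2 fold changes above 0 and 5 below, and a median of -0.02 against 0.0068 over all 14854 genes. By the criteria of the study (adjusted p under 0.05 in the edgeR fit over all genes, over 1.5-fold, a mean of 0.1 FPKM in 1 condition and at least 1 FPKM of difference) 2 of 10 would count as higher, ANKRD1 and CCN2, and 1 as lower, TEAD4. Over all tested genes these criteria call 5.69% higher and 4.43% lower. By the adjusted p alone, 4 members would count as higher and 2 as lower, where 18.5% and 20.0% of all tested genes do. The CPM of the treatments did not overlap for 4 members higher and 4 lower, beside 35.0% and 34.7% of all tested genes. Since the members were chosen on this difference, nothing is read from these shares. Scaling by library totals moved the median log2 fold change of all genes from 0.0068 to 0.12 and raised each member by about as much.

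Levels can be compared between genes per length, by FPKM. In vehicle the order was CCN1, CCN2, TEAD1, YAP1, WWTR1, AMOTL2, TEAD4, LATS2, AMOTL1 and ANKRD1, from 323 and 317 FPKM down to 0.352 and 0.0974. No neighbours in that order overlapped between the vehicle libraries. The order was the same with gemcitabine, but there CCN1 (328 and 294 FPKM) overlapped CCN2 (261 and 302), and YAP1 (50.8 and 53.6) overlapped WWTR1 (54.0 and 49.0). CCN2 thus came level with CCN1, going from 29.4% and 29.2% to 42.2% and 48.6% of the FPKM of the CCN family. For WWTR1 the gemcitabine libraries ran the other way by CPM, at 123 and 145, and its implied transcript length there was 2.39 and 3.04 kb. The overlap of YAP1 with WWTR1, and the share of YAP1 in that pair, therefore depend on this length.

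The make-up of the TEAD family differed between the treatments. Its summed FPKM was 171 and 166 in vehicle and 152 and 150 in gemcitabine. TEAD1 had 46.5% and 48.4% of it in vehicle and 37.5% and 42.6% in gemcitabine, and TEAD4 went from 17.9% and 18.4% to 14.7% and 13.5%. TEAD2, at 45.3 and 42.9 FPKM in vehicle and 57.4 and 47.1 in gemcitabine, went from 26.5% and 25.9% to 37.8% and 31.4%. Among the muscle ankyrin repeat proteins, ANKRD1 had 5.61% and 2.21% of the FPKM in vehicle and 38.3% and 37.5% in gemcitabine. ANKRD23 was the main one in all 4 libraries, at 86.4% and 94.4% in vehicle and 50.8% and 47.5% in gemcitabine. By fragments ANKRD23 stayed far above ANKRD1 with gemcitabine, at 448.9 and 463.1 against 85 and 60. The FPKM shares therefore depend on the isoform lengths that Cuffdiff assigned. These shares are descriptions, with no test.

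**Figure D3:**
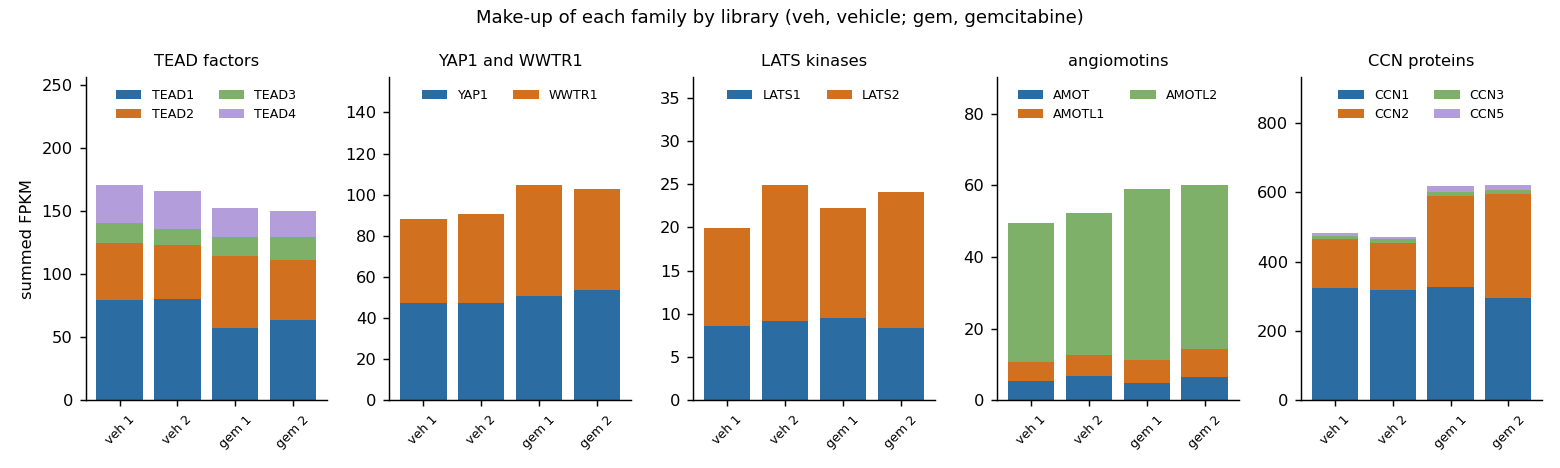
Summed FPKM of each gene family in the 4 RNA-seq libraries (veh, vehicle; gem, gemcitabine), stacked by gene, each panel with its own axis from 0. The TEAD1 and TEAD4 segments are smaller and the TEAD2 segment larger with gemcitabine, and CCN2 grows from 142 and 138 to 261 and 302 FPKM beside 323 and 317 against 328 and 294 for CCN1.

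The rest of the pathway was read from 70 further genes in 5 lists, of which 65 had enough fragments for the test. These lists were drawn up with earlier results of these data known, so the adjusted p-values of their genes serve as description only. By the criteria of the study 7 rose and 3 fell, where 5.69% and 4.43% of all tested genes did. By the adjusted p alone 15 were higher and 12 lower, beside 18.5% and 20.0% of all tested genes, and 38 passed in neither direction. The lists were not tested against other genes, and nothing particular to the pathway is read from these counts. Their median log2 fold change was 0.02, near that of all genes. All adjusted p-values here are from quasi-likelihood tests in edgeR, adjusted after Benjamini and Hochberg over 14854 genes.

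Upstream of YAP1, the core cascade did not pass the test. STK3 had 429 and 458 fragments in vehicle and 420 and 405 in gemcitabine (log2 fold change 0.01, adjusted p = 0.94). The log2 fold changes of its partners were -0.08 for STK4 (adjusted p = 0.365) and 0.02 for SAV1 (adjusted p = 0.872), and that of LATS1, the sister kinase of LATS2, was -0.19 (adjusted p = 0.102). LATS1 made up 34.4% to 43.1% of the FPKM of the LATS pair in the 4 libraries. NF2, the membrane scaffold that brings LATS kinases to be activated, was lower by the adjusted p (1222 and 1210 against 873 and 885 fragments, log2 fold change -0.35, adjusted p = 0.00122) but by under 1.5-fold. Only MAP4K2, a kinase that can act on LATS1 and LATS2 beside STK3 and STK4, rose by the full criteria among the 22 genes of this list, whose median was 0.08. By the adjusted p alone 4 were higher and 2 lower. The full criteria call 5.69% of all tested genes higher and 4.43% lower, and the adjusted p alone 18.5% and 20.0%. Nothing particular to the list is read from these counts. MAP4K2 had 507 and 471 fragments in vehicle and 770 and 730 in gemcitabine, which is 0.73 on the log2 scale (standard error 0.085, adjusted p = 1.29e-05).

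Among junction, polarity and cadherin partners 14 of 18 tested genes had a log2 fold change below 0, with a median of -0.16 against 0.0068 over all genes. Only FAT1, a giant cadherin, fell by the full criteria, from 5043 and 5566 to 2702 and 2852 fragments (log2 fold change -0.82, standard error 0.069, adjusted p = 7.39e-07). The full criteria call 4.43% of all tested genes lower and 5.69% higher. By the adjusted p alone 5 were lower and 2 higher, beside 20.0% and 18.5% of all tested genes, so no direction is read for the list. AMOT, the founding angiomotin, had 388 and 447 fragments against 287 and 347 (log2 fold change -0.28, adjusted p = 0.0579). CRB3 and DCHS1 had under 10 fragments in all.

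TEAD2 and TEAD3, the other factors of that family, lay slightly above vehicle. TEAD2 had 977 and 908 fragments in vehicle and 976 and 955 in gemcitabine (log2 fold change 0.15, adjusted p = 0.147). TEAD3 had 517 and 479 against 534 and 525 (log2 fold change 0.20, adjusted p = 0.0892). Neither passed the test, and the difference between TEAD factors was not tested itself. VGLL4, which competes with YAP1 for TEAD factors, was higher by the adjusted p at under 1.5-fold (684 and 724 against 795 and 749 fragments, log2 fold change 0.25, adjusted p = 0.0176). VGLL3, a related TEAD cofactor named after its values were seen, was lower by the adjusted p (1482 and 1744 against 1143 and 1019 fragments, log2 fold change -0.46, adjusted p = 0.000304). VGLL1 had at most 2 fragments in a library and VGLL2 none.

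Other genes known as targets of YAP1 and TAZ moved in both directions. Of 17 listed and tested, 5 rose and 2 fell by the full criteria, and 6 were higher and 3 lower by the adjusted p alone. Over all tested genes the criteria call 5.69% higher and 4.43% lower, and the adjusted p alone 18.5% and 20.0%. The list's median log2 fold change was -0.08. NT5E, the ecto-enzyme CD73 that makes adenosine, rose most, from 99 and 102 to 217 and 226 fragments (log2 fold change 1.25, standard error 0.14, adjusted p = 7.13e-06). CCDC80, a secreted matrix protein, rose from 584 and 511 to 864 and 985 (0.87, adjusted p = 9.35e-06). NUAK2, an AMPK-related kinase, rose from 245 and 236 to 399 and 399 (0.84, adjusted p = 1.56e-05). GADD45A, a stress gene that p53 and other factors also induce, rose from 210 and 225 to 367 and 324 (0.78, adjusted p = 5.74e-05). F3, or tissue factor, falls outside the rule for named genes and was named after its values were seen. It had 191 and 191 fragments against 333 and 230 (0.67, adjusted p = 0.00254), and its call was lost without gemcitabine replicate 1 (0.40) and without either vehicle library (0.71 and 0.65).

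The strongest fall in this list was that of FJX1, a secreted glycoprotein of the Fat pathway, from 751 and 787 to 207 and 236 fragments (log2 fold change -1.68, standard error 0.096, adjusted p = 3.32e-08). FOXF2, a forkhead factor of mesenchymal cells, fell from 2012 and 1868 to 996 and 1020 (-0.83, adjusted p = 1.36e-06). AXL, a receptor tyrosine kinase and an abundant target with 5196 and 5633 against 4474 and 4612 fragments, did not pass (-0.14, adjusted p = 0.112). IGFBP3, a secreted binding protein of insulin-like growth factors, was lower by the adjusted p at under 1.5-fold (2101 and 2080 against 1560 and 1458 fragments, -0.36, adjusted p = 0.000805). Both were named after their values were seen. Among paralogs of the members CCN5 rose, from 176 and 173 to 354 and 337 fragments (1.10, adjusted p = 3.37e-06). ANKRD2, the nearest relative of ANKRD1 in the list, had 7 and 4 against 13 and 15 (1.44, adjusted p = 0.0425) and did not reach 1 FPKM of difference. CCN4 was at 0 in all 4 libraries.

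**Figure D4:**
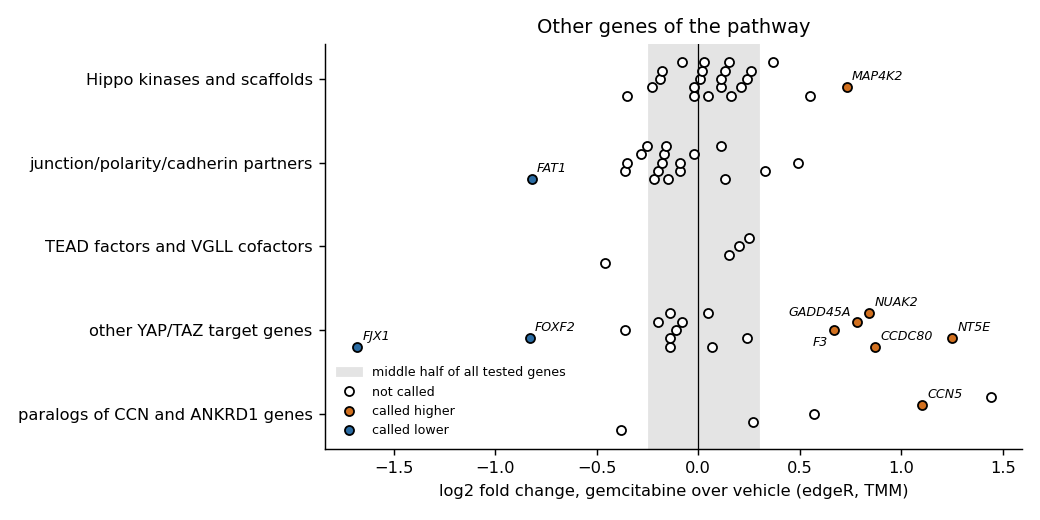
Log2 fold change of gemcitabine over vehicle (edgeR, TMM) for the 65 tested genes of the pathway, by list, with called genes filled and named and the grey band for the middle 50 percent of all tested genes (-0.24 to 0.3). Target genes lie on both sides, from FJX1 at -1.68 to NT5E at 1.25, and MAP4K2 at 0.73 is the 1 filled point among the kinases and scaffolds, where MAP4K1 (0.55), STK38L (0.37) and NF2 (-0.35) also lie outside the band. PTPN14 is drawn in 2 lists, and vertical offsets only separate points.

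The genes whose pattern over the 4 libraries was most like that of ANKRD1, by the root mean square difference of centred log2 CPM among 12842 genes, were LPAR5, CXCL8, SH3TC2, FOXS1 and GCNT3. LPAR5, a receptor for lysophosphatidic acid, was nearest at 0.21, with 14 and 7 fragments in vehicle and 86 and 72 in gemcitabine. CXCL8, the chemokine interleukin 8, had 24 and 13 against 103 and 120, at a difference of 0.39. FOXS1, a forkhead factor, had 7 and 7 against 59 and 61. SH3TC2 had 10 and 8 against 65 and 56, and GCNT3, a mucin glycosyltransferase, 7 and 1 against 25 and 29. All are scarce in vehicle, and 4 points per gene describe likeness of level only.

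Open chromatin is a measurement that did not choose the members. MACS had called 9606 peaks in the vehicle library and 10695 in the gemcitabine library, each with a score of -10 times the log10 of its p-value, and 57.7% and 51.8% of them overlap a peak of the other list. With 1 library of each treatment there is no replicate check, and a peak missing from a list may lie just under its limit of 50. Within 1 kb of a protein-coding transcript start, 1 of the 10 members had a vehicle peak (95% exact interval 0.253% to 44.5%) and 3 had a gemcitabine peak (6.67% to 65.2%). Of 14153 tested genes with a start, 27.8% and 32.2% had one. The intervals cover counting error only. The members with a gemcitabine peak at a start were AMOTL2, YAP1 and WWTR1, and YAP1 was the one with a vehicle peak. Within 50 kb of the genes lay 19 vehicle and 24 gemcitabine peaks, and 12 of each overlap the other list.

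ANKRD1 had no vehicle peak within 50 kb and 1 gemcitabine peak. It spans chr10:92690005-92691131 of hg19, begins 9.16 kb upstream of the start and overlaps no annotated gene. Its score of 64.48 is modest, with 35.4% of the gemcitabine list below it. This peak holds 3 TEAD matches, or 2.66 per kb against 0.846 per kb over all gemcitabine peaks, of which 49.7% hold at least 1. Gemcitabine peaks near other members ran from 0 per kb (AMOTL2, chr3:134076595-134077447) to 2.88 per kb (TEAD1, chr11:12646735-12647777). The ANKRD1 peak also holds 1 CArG box, and 5.79% of all gemcitabine peaks hold at least 1. Its central 300 bases, chr10:92690418-92690717 on the plus strand, hold 2 of the TEAD matches. Of the gemcitabine peaks, 2.82% hold 2 or more TEAD matches there. CCN2 showed the reverse, with no gemcitabine peak and 1 vehicle peak at chr6:132300989-132301801, which begins 28.5 kb upstream within an intron of the non-coding gene LINC01013. Its score was 69.97, with 48.1% of the vehicle list below it. The central 300 bases, chr6:132301245-132301544, hold 2 TEAD matches and 1 match of the loose AP-1 pattern, which reads TGAATCA. Of the vehicle peaks, 3.32% hold at least 2 TEAD matches there. Both are shown, with matches in capitals, because they are the only called peaks near the members that differed most.
ANKRD1 gemcitabine peak: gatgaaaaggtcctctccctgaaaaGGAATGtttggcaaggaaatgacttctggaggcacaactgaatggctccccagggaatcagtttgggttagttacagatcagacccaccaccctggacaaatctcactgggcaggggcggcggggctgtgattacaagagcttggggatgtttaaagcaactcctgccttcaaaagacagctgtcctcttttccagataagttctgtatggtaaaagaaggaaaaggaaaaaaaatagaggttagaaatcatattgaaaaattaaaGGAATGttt
CCN2 vehicle peak: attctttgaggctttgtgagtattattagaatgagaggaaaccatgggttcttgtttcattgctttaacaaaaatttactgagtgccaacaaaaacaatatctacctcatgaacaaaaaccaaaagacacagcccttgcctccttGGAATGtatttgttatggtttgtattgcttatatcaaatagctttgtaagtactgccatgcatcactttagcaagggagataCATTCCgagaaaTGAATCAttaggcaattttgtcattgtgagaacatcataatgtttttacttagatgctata

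CCN1 likewise had only a vehicle peak, 42.0 kb upstream within DDAH1, with a score of 53.81. TEAD4 had no peak of either library within 50 kb. At the start of AMOTL2 the gemcitabine list has a broad peak of 2285 bases, chr3:134092184-134094468, whose score of 126.45 is above 88.6% of its list, and the vehicle list has none there. By its letters this peak holds the whole AMOTL2 stretch printed above with its TEAD match, and the RNA of AMOTL2 differed by 0.17 on the log2 scale. YAP1 had a start peak in each library that did not overlap, at chr11:101982188-101983299 in vehicle (score 62.91) and at chr11:101980280-101981535 in gemcitabine (score 50.94, near the limit). The gemcitabine one holds the printed YAP1 stretch. WWTR1 had a peak at a protein-coding start in gemcitabine alone, at chr3:149375299-149376707, with a score of 63.86. Another gemcitabine peak without overlap in the vehicle list, chr3:149453567-149454886 (score 60.54), lies over the annotated 5′ end of the WWTR1 gene, where a transcript without a defined coding sequence starts.

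Several peaks away from the starts were called in both libraries. All 3 peaks near AMOTL1 are among them, with scores of 113.31, 105.56 and 71.13 in vehicle and 148.62, 182.41 and 99.53 in gemcitabine. TEAD1, the longest of the genes at 270.32 kb, had 6 vehicle and 7 gemcitabine peaks, of which 5 overlap. The highest score among these in the vehicle list was 117.28, for a peak in an intron that scored 61.65 in gemcitabine, and in the gemcitabine list 80.04, for a peak beyond the gene in LINC00958 that scored 50.79 in vehicle. LATS2 shared a peak 7.7 kb upstream, with scores of 87.14 and 125.02. Scores depend on the depth of a library and are not compared between them.

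**Figure D5:**
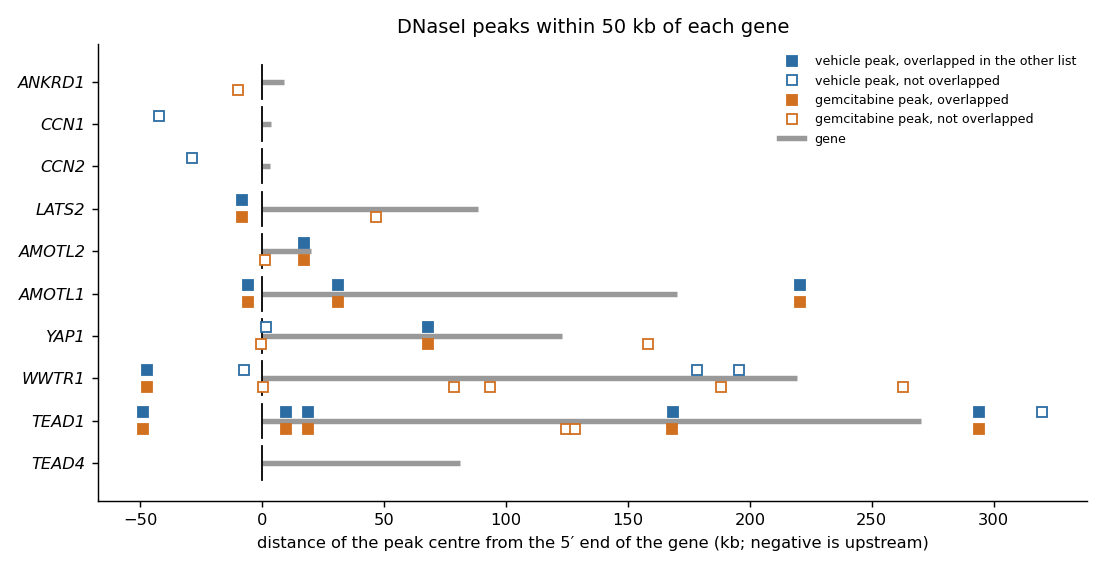
DNaseI peaks within 50 kb of each gene, by the distance of the peak centre from the 5′ end of the gene (kb, negative is upstream), with vehicle peaks in blue above the gene line and gemcitabine peaks in orange below it, filled where the other list overlaps. ANKRD1 has 1 open orange square 9.72 kb upstream, CCN1 and CCN2 have 1 open blue square each, and TEAD4 has none.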

How the data were processed

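RNA-seq of 4 libraries and DNaseI-seq of 2 libraries of PANC1 cells was used. Single-end reads had been mapped to hg19 (TopHat2 2.0.8), and the authors deposited estimated counts (fragments per gene from Cuffdiff 2.0.2, on protein-coding Gencode genes), of which 86.8% are whole numbers. They also deposited FPKM, which Cuffdiff sums over isoforms. The peak lists that the authors deposited carry a score, -10 times the log10 of the MACS p-value, on hg19. The labels' replicate numbers cannot be tied to the numbering in the table, so replicate numbers only name libraries.

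Counts were rounded, and the 14854 genes with at least 10 fragments over 4 libraries were tested with edgeR 4.0.16 (TMM, quasi-likelihood, Benjamini-Hochberg, no covariate) in R 4.3.3, in place of Cuffdiff's test. A call needed an adjusted p under 0.05, over 1.5-fold, a mean of 0.1 FPKM in 1 condition and 1 FPKM of difference. The test was tested on simulated data. DESeq2 1.42.0, limma 3.58.1 on log2(FPKM + 1) and log2(FPKM + 0.1), other scalings and filters, and each library left out were alternatives.

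The 10 members and the lists of pathway and marker genes were chosen with earlier results of these data known. CCN2, ANKRD1, NUAK2 and MAP4K2 are among genes the study lists from these samples. Named genes were the members, the called genes of each list (at most 4 per direction), LATS1, STK3, STK4, SAV1, NF2, AMOT, TEAD2, TEAD3 and VGLL4, and the 5 genes most like ANKRD1. Starts and exons came from a Gencode annotation on hg19, and promoters from RefSeq on GRCh38.p14. Exons of CCN2, AMOTL1, YAP1 and WWTR1 overlap non-coding genes on the opposite strand, and those of AMOTL2 a pseudogene. Whether counting used strand is not given in the sources used here. Proteins were not analysed here.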

Additional observations from a re-analysis of the deposited data

How the results depend on the processing

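ANKRD1, CCN1, CCN2, AMOTL2, WWTR1, TEAD1 and TEAD4 kept the sign of their log2 fold change under all 11 alternatives run for each member. AMOTL1 reached 0.36 and LATS2 0.09 in limma on FPKM, where both had been below 0, and YAP1 came to 0.00 without gemcitabine replicate 2. ANKRD1 shrank to 1.58 in limma on log2(FPKM + 1), a scale that understates low genes. Among the further pathway genes the 7 that rose became 4 in limma on log2(FPKM + 1) and 15 by adjusted p alone, and the 3 that fell became 1 and 12. Of the target list, 5 rose and 2 fell, against 2 and 1 in limma on log2(FPKM + 1), and 3 rose on log2(FPKM + 0.1). CCDC80, NUAK2, FAT1 and the member TEAD4 (-0.50 and -0.52) lost their call in both limma fits, FOXF2 and F3 lost theirs on log2(FPKM + 1), and STK38L gained one on log2(FPKM + 0.1). With 1 library left out, 6 to 7 rose and 3 fell in all lists. At a score of at least 100, members with a peak at a start went from 1 to 0 in vehicle and from 3 to 1 in gemcitabine. The share of all 14153 tested genes with a start fell as well, from 27.8% to 8.01% in vehicle and from 32.2% to 9.91% in gemcitabine. Why these values moved was not tested. No paired analysis was possible because the gene table numbers its libraries in a way that nothing links to the labels. With 2 libraries per condition, and 4 to 10 fragments of ANKRD1 in vehicle, its fold change is known only within wide bounds, and DNaseI-seq has no replicates.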
